A study of Mus musculus with 6 samples.

Results

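From 24453 gene rows of sorted newborn mouse skin cells, 39 genes for enzymes and regulators of sebaceous and barrier lipids were chosen by symbol. All 39 were found. They cover 2 transcription factors of sebocytes, 7 genes of fatty acid synthesis and desaturation, 6 elongases, 9 genes of wax, sterol ester and triglyceride storage, 9 genes of ceramide synthesis and 6 genes of acylceramide handling and the lipid envelope. The RNA came from back skin at postnatal day 0, sorted by flow cytometry and labelled as hair follicle cells. There were 3 libraries of genotype Control and 3 of genotype Ring1a-/- Ring1b-/-, the latter called Ring1a/b 2KO, and the question is how RNA levels change on loss of RING1A and RING1B, which place ubiquitin on histone H2A as part of a Polycomb complex. The labels name neither the driver that removes the alleles nor any allele that the controls carry. Nothing states whether the 3 libraries of a group came from separate mice. The p-values measure the spread between these libraries, which may be technical in part.

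Sebocytes, the cells of the sebaceous gland beside each hair follicle, fill with wax esters, triglycerides and sterol esters and burst to release them as sebum. Keratinocytes of the granular layer make a different mixture: ceramides with very long acyl chains, partly linked to linoleate, are packed into lamellar bodies, secreted, and attached to the cornified envelope, where they hold water in the skin. Both products draw on the same fatty acid synthase, desaturases and elongases, and loss of several of the barrier enzymes causes ichthyosis or a lethal barrier defect in mice.

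Total counts ranged from 24759973 to 30798564 per library, so 1 count was worth between 0.0323 and 0.0392 CPM (counts per 1e6 counts of the library, TMM-scaled; TMM is edgeR's correction for library composition). The genes named in the knockout overlapped between groups: Ring1 lay between 3.37 and 22.4 CPM in control and between 1.84 and 14.1 in 2KO, and Rnf2 between 47.1 and 79.5 and between 66.4 and 89.2 (edgeR adjusted p = 0.537 and 0.615). The labels do not say which exons are removed, and reads from remaining exons would still be counted, so these values do not check the genotypes and the groups are named by their labels. Basal keratinocyte markers were high everywhere, with a summed level of 22600 to 32800 CPM in control and 28900 to 34200 in 2KO over 10 genes. Ly6a, which encodes the sorting antigen Sca1, lay between 1.92 and 7.28 CPM in all 6 libraries. Xist was at 4550, 5360 and 4950 CPM in control replicate 3 and 2KO replicates 1 and 2 and at most at 10.4 CPM in the other 3, and the labels give no sex. Each group thus held libraries with high and with low Xist, so its libraries did not all come from the same animal.

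Of the 39 genes, 38 passed the low-count filter, 4 were higher in 2KO (Scd2, Fads1, Cers2 and Ugcg), 4 were lower (Prdm1, Far2, Mgst1 and Fa2h) and 30 did not pass the threshold (edgeR quasi-likelihood test, Benjamini-Hochberg adjusted p under 0.05 over all tested genes). Over all 14972 tested genes 6.61% were called higher and 2.42% lower, 9.02% in either direction. The fold change of 23 tested lipid genes lay above 0 and that of 15 below, with a median log2 fold change of 0.19 against -0.02 over all tested genes. For 16 of the 38 the libraries of both groups were fully separated, with 2KO above control for 8 and below for 8. Over all tested genes 28.4% did not overlap, 15.2% with 2KO above and 13.1% with 2KO below. The number of genes called higher was 2 without control replicate 2 and 2 without control replicate 3. The number called lower was 2 without control replicate 1, control replicate 3, 2KO replicate 1 or 2KO replicate 3, and leaving out both replicate-3 libraries, 0 were higher and 2 (Prdm1 and Fa2h) lower. In these bulk samples fewer cells of a type and less RNA per cell cannot be told apart.

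**Figure D1:**
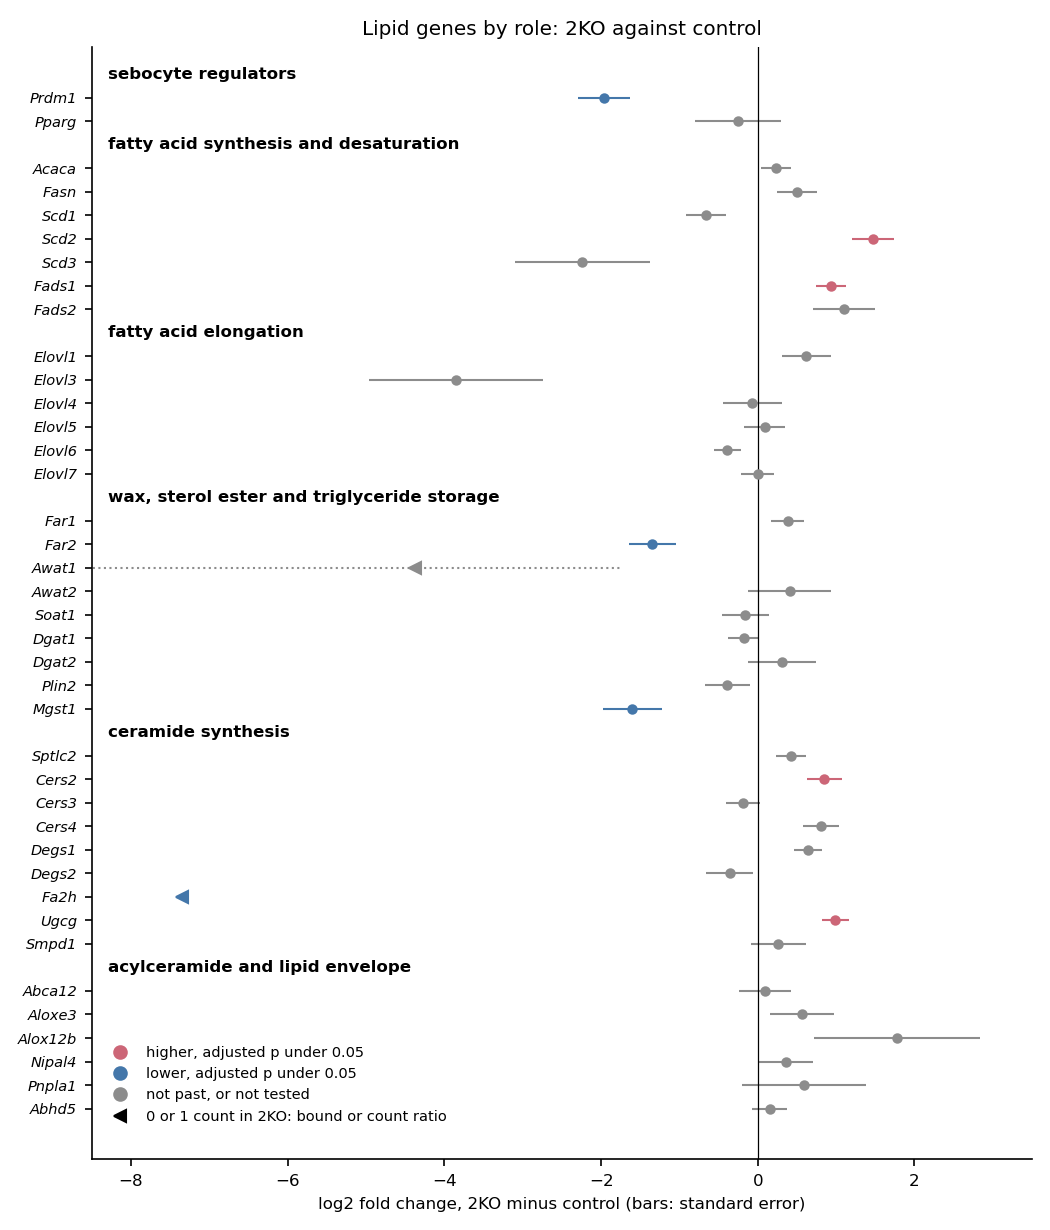
Log2 fold change of 2KO minus control for each of the 39 lipid genes, grouped by role, with the standard error as a bar. Red points passed the threshold as higher and blue points as lower; for Fa2h the triangle is the bound of -7.35 from 0 counts in 2KO, and for Awat1 it is the ratio of pooled counts with its counting interval as a dotted line, which runs off the left edge.

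The plot of fold changes by role shows the called genes spread over the roles: the rises lie in desaturation and ceramide synthesis, the falls among the sebocyte regulators, the storage genes and ceramide hydroxylation, and none of the 6 elongases or 6 lipid envelope genes passed. The calls in the 9 ceramide genes went both ways, with 2 higher and 1 lower.

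RING1 complexes are known to bind mainly at promoters rich in CG dinucleotides, so the 250 bases before the annotated start are shown for the called genes that have an entry in the RefSeq table used here (GRCm38.p6, the assembly that mm10 names), which held 31 of the 39 genes and no entry for Scd2, Fads1 or Fa2h. Each is printed 5′ to 3′ on the strand of the gene, with CG dinucleotides in capitals. The first pair was higher in 2KO and the other 3 were lower. They lie at chr4:59189300-59189549 (plus strand, Ugcg), chr3:95314940-95315189 (plus, Cers2), chr10:44458749-44458998 (minus, Prdm1), chr6:148047166-148047415 (plus, Far2) and chr6:138140277-138140526 (plus, Mgst1). The start used for Prdm1 lies 69753 bases inside the longer gene model of GENCODE vM21.
Ugcg: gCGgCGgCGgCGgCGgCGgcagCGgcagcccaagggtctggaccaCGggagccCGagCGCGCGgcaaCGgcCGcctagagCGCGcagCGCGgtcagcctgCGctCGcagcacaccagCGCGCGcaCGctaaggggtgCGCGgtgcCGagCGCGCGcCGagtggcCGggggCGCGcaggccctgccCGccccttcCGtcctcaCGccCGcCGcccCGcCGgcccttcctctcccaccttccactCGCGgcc
Cers2: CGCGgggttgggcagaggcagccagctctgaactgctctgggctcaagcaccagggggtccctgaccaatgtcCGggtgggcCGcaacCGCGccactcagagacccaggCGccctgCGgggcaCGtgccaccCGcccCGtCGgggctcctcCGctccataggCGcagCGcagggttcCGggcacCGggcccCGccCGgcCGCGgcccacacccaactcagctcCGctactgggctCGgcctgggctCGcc
Prdm1: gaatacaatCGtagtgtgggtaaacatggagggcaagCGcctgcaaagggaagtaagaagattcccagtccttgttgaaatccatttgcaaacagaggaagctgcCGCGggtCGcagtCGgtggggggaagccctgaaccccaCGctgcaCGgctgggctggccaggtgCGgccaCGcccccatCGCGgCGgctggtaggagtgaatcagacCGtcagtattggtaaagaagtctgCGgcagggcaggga
Far2: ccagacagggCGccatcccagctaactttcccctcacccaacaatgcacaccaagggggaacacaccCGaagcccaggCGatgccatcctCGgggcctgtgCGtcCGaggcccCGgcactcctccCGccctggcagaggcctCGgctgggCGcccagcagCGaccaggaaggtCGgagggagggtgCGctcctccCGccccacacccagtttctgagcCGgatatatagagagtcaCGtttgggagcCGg
Mgst1: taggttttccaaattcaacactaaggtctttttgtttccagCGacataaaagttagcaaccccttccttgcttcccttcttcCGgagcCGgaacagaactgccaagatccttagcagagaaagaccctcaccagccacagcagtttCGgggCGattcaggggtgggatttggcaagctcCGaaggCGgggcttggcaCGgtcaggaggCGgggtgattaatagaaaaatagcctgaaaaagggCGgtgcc

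The Ugcg window held 43 CG dinucleotides and that of Cers2 24, against 15 for Prdm1, 17 for Far2 and 10 for Mgst1. Among the lipid genes that were not called, the windows of Pparg, Fasn, Elovl4 and Elovl7 held 38, 33, 25 and 25, and the others held fewer than Cers2. A relation of the CG count to the direction of change was not tested. Over all 32851 promoter windows of the same length the median was 6, with an upper quartile of 16, and 0.712% of windows held at least as many as Ugcg. Over the 31 lipid genes with an entry the count ran from 0 (Acaca, Scd3 and Awat1) to 43, with a median of 14. The start used for Acaca lies 65766 bases from the GENCODE start, so its window, like that of Prdm1, is not the one before the longer gene model. The starts used for Ugcg, Cers2, Far2 and Mgst1 lie 293, 399, 157 and 211 bases inside their GENCODE gene models. The windows of Ugcg and Cers2 thus lie wholly within those models, and those of Far2 and Mgst1 in part. A search on both strands for GGGCGG, the core of the GC box, matched 17 of the 31 windows, among them those of Ugcg, Cers2, Far2 and Mgst1, against 32.7% of all windows. CACGTG, the core of the E-box, matched 3 (6.02% of all windows), CCAAT 12 (33.8%) and TATAAA 0 (12.4%). These matches describe letters in the window and no binding was measured.

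Of the sebocyte regulators, Prdm1 was lower in 2KO. Prdm1 (chromosome 10, 44437177 to 44528501, minus strand) encodes BLIMP1, a transcriptional repressor of sebocytes, of the inner root sheath and of the upper epidermis. It was at 106, 79.7 and 54.9 CPM in control replicates 1, 2 and 3 and at 21.3, 13.2 and 27.2 in 2KO. Every 2KO library lay below the lowest control, replicate 3. The means were 80.3 ± 25.7 and 20.6 ± 7.02 CPM (SD, n = 3), a log2 fold change of -1.96 (SE 0.33, edgeR adjusted p = 0.00613). The call was kept in 13 of 13 alternatives, with an adjusted p of at most 0.0356. Pparg, the nuclear receptor that drives lipid accumulation in sebocytes and adipocytes, was low in all libraries, at 5.89, 3.0 and 3.73 CPM in control and 2.12, 2.37 and 6.12 in 2KO. Its groups overlapped and its log2 fold change of -0.25 did not pass (SE 0.55, edgeR adjusted p = 0.855).

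Among the desaturases, which place double bonds in fatty acids, Scd2 and Fads1 were higher in 2KO, and Scd1 and Scd3 did not pass the threshold. Scd2 (chromosome 19, 44293674 to 44306864, plus strand), a stearoyl-CoA desaturase, was at 149, 162 and 218 CPM in control and 308, 616 and 539 in 2KO. All 2KO libraries lay above all controls, with 2KO replicate 1 nearest to them, and the log2 fold change was 1.47 (SE 0.27, edgeR adjusted p = 0.00959). Scd1, the family member best known from the sebaceous gland, lies on the same chromosome as Scd2, with Scd4 between them. Scd1 was at 125, 93.5 and 110 CPM in control and 44.7, 93.6 and 69.8 in 2KO. Its groups overlapped by the narrowest margin, in 2KO replicate 2, and the log2 fold change of -0.66 did not pass (SE 0.26, edgeR adjusted p = 0.181). Scd3, known from sebocytes, was at 3.62, 1.68 and 0.883 CPM in control and 0.706, 0.167 and 0.432 in 2KO, without overlap but short of the threshold (log2 fold change -2.24, SE 0.86, edgeR adjusted p = 0.163).

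**Figure D2:**
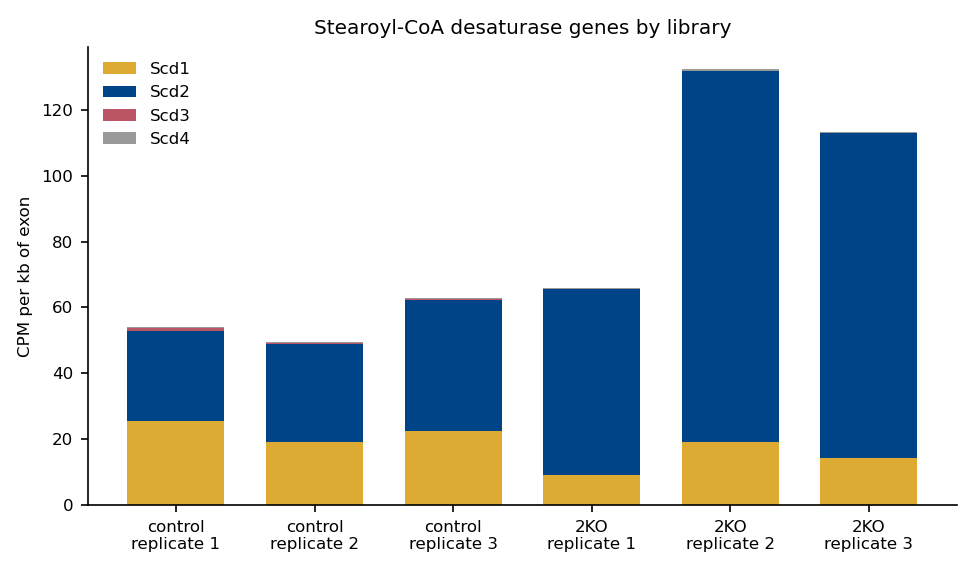
Level of the 4 stearoyl-CoA desaturase genes in each library as CPM per kb of annotated exon, stacked from Scd1 at the bottom to Scd4 at the top. Scd2 makes up most of each 2KO bar and between 50.5% and 63.6% of each control bar, while Scd3 and Scd4 are barely visible.

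Per length of exon, Scd2 made up 50.5%, 60.0% and 63.6% of the summed level of Scd1 to Scd4 in control and 85.5%, 85.1% and 87.2% in 2KO. The share of Scd1 was 40.6% ± 5.97 in control and 13.6% ± 0.937 in 2KO (SD, n = 3). As the plot of the 4 genes shows, the groups do not overlap for either share. A two-sided exact permutation test gave p = 0.1 for both, the smallest value that 3 libraries against 3 allow, and 0.171 after adjustment over the 24 shares computed in 6 gene families. The copies can be told apart in most of their length: 2.58% of the stretches of 100 nt (the read length) in annotated Scd1 transcripts occur in another gene, and 0.879% of those of Scd2 and 2.49% of those of Scd3.

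Fads1 (chromosome 19, 10182888 to 10196877, plus strand), a desaturase of polyunsaturated fatty acids, was at 34.9, 29.6 and 30.1 CPM in control and 61.6, 57.4 and 61.3 in 2KO. The spread within each group was small against the gap between them, with a log2 fold change of 0.93 (SE 0.19, edgeR adjusted p = 0.0145). Its call was lost without control replicate 2 (adjusted p = 0.0616), without control replicate 3 (0.0671) and without both replicate-3 libraries (0.128), and that of Scd2 was lost only in the last of these among 13 alternatives (0.0731). Fads2, the neighbouring gene for the preceding desaturation step, was at 3.02, 5.46 and 3.56 CPM in control and 11.2, 7.54 and 7.06 in 2KO, which did not overlap but missed the threshold (log2 fold change 1.10, SE 0.39, edgeR adjusted p = 0.128). The 2 enzymes upstream of desaturation did not pass. Fasn, the fatty acid synthase, was at 125, 221 and 219 CPM in control and 315, 271 and 214 in 2KO (edgeR adjusted p = 0.28), and Acaca, the carboxylase that supplies malonyl-CoA, lay between 38.1 and 45.4 in control and between 45.1 and 53.3 in 2KO (edgeR adjusted p = 0.558). Of the Acaca stretches of read length, 23.7% also occur in annotated copies, so its value is less certain.

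Of the 6 elongases, which lengthen acyl chains by steps, none passed the threshold, and 3 fold changes lay above 0 and 3 below. Elovl3, an elongase of sebocytes and hair follicles, was the lowest of them, at 2.06, 0.775 and 1.01 CPM in control and 0.118, 0.134 and 0 in 2KO. In counts this was 58, 24 and 31 against 3, 4 and 0, without overlap (log2 fold change -3.85, SE 1.11, edgeR adjusted p = 0.0625). With DESeq2 Elovl3 passed as lower (adjusted p = 0.00778). Elovl6, which extends palmitate, lay between 76.9 and 88.1 CPM in control and between 58.9 and 65.8 in 2KO, again without overlap and short of the threshold (log2 fold change -0.39, SE 0.17, edgeR adjusted p = 0.221). The elongases of barrier lipids overlapped between groups. Elovl1, which makes very long saturated chains, was at 23.0, 43.3 and 57.3 CPM in control and 57.3, 72.1 and 60.1 in 2KO (edgeR adjusted p = 0.287), and Elovl4, which makes the ultra-long chains of acylceramides, at 28.6, 87.3 and 80.9 and at 45.6, 69.5 and 72.1 (edgeR adjusted p = 0.95). Elovl7 had the highest level per length among the elongases in both groups (33.4 ± 8.91 and 33.6 ± 0.381 CPM per kb, SD, n = 3) and a log2 fold change of 0.00 with an SE of 0.21. Elovl5, an elongase of polyunsaturated chains, was at 36.8 to 63.0 CPM in control and 39.0 to 58.2 in 2KO.

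Genes of wax and neutral lipid storage included 2 that were lower in 2KO, Far2 and Mgst1, while the enzymes of triglyceride and sterol ester synthesis did not pass. Far2 (chromosome 6, 148047259 to 148182758, plus strand), a reductase that makes the fatty alcohols of waxes, was at 17.9, 14.1 and 20.2 CPM in control and 5.1, 8.24 and 7.14 in 2KO. No 2KO library reached the lowest control, and the log2 fold change was -1.35 (SE 0.30, edgeR adjusted p = 0.0229). Its call was lost without control replicate 1 (adjusted p = 0.0714) or 3 (0.0951), without 2KO replicate 1 (0.0545) or 3 (0.067), and without both replicate-1 (0.099) or both replicate-3 libraries (0.177). Opposite-strand genes overlap 12.6% of its exonic bases, and since the strand setting of the counting is not given, their reads cannot be told apart there. Far1, its broadly expressed relative, was at 64.2, 77.2 and 63.2 CPM and at 109, 84.4 and 72.3 (edgeR adjusted p = 0.337). Far2 made up 22.1% ± 4.8 of the summed level per length of both reductases in control and 8.14% ± 2.81 in 2KO (SD, n = 3), without overlap (two-sided exact permutation p = 0.1, the smallest possible, adjusted 0.171).

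Mgst1 (chromosome 6, 138140316 to 138156755, plus strand), a microsomal glutathione transferase abundant in sebocytes, was at 15.2, 7.91 and 9.55 CPM in control and 4.04, 2.77 and 3.96 in 2KO. Control replicate 1 stood highest and all 2KO libraries lay below the controls (log2 fold change -1.60, SE 0.38, edgeR adjusted p = 0.0299). The call held in 5 of 13 alternatives. It was lost without control replicate 1 (adjusted p = 0.128) or 3 (0.0675), without any 2KO library (0.0527, 0.103 and 0.0701 for replicates 1, 2 and 3), without both replicate-1 (0.121) or both replicate-3 libraries (0.142), and with Xist as a covariate (0.0796).

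Of the wax synthases, Awat1 had 6, 8 and 9 counts in control and 1, 0 and 0 in 2KO and was too low to be tested. The ratio of pooled counts was 20.7 (95% Clopper-Pearson interval 3.37 to 855, counting error only), and with no low-count filter the edgeR adjusted p was 0.324. Awat2 was at 1.93 to 2.27 CPM in control and 1.88 to 4.04 in 2KO. Soat1, which esterifies cholesterol, lay between 13.4 and 17.7 CPM in control and between 9.53 and 17.9 in 2KO, and Plin2, a coat protein of lipid droplets, between 12.1 and 14.4 and between 8.24 and 12.7. The triglyceride synthases Dgat1 (28.7 to 32.8 and 26.0 to 28.3 CPM) and Dgat2 (6.49 to 17.3 and 9.25 to 23.1) had edgeR adjusted p of 0.691 and 0.759, Dgat1 without overlap between the groups.

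**Figure D3:**
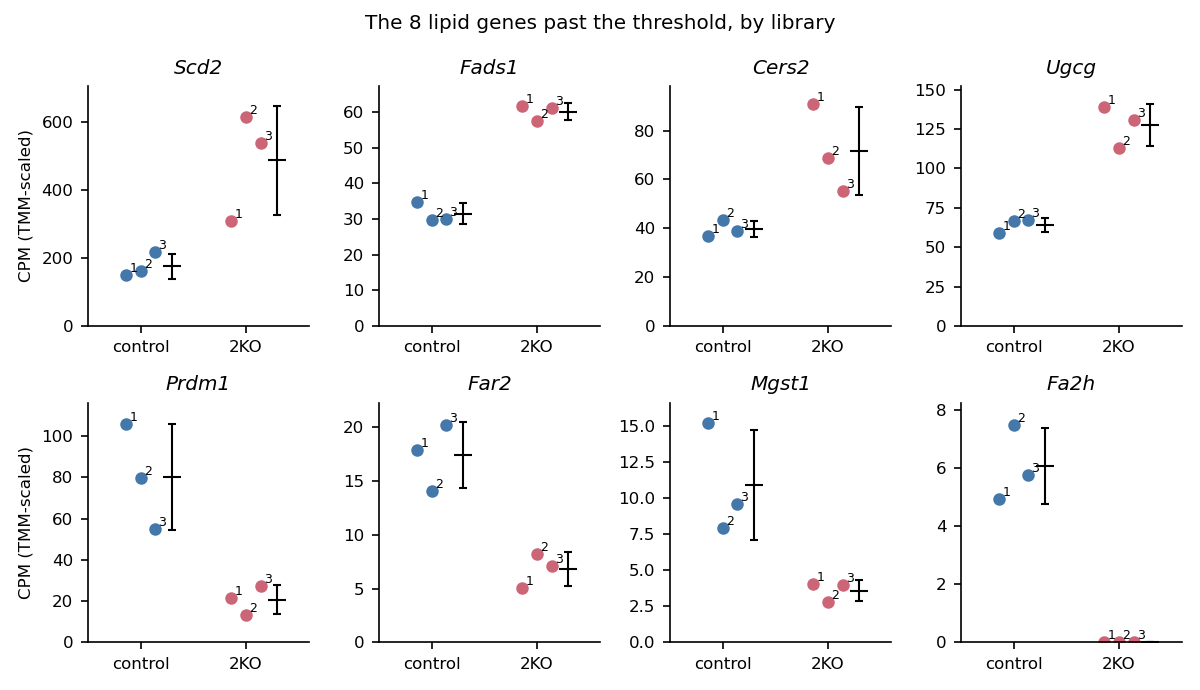
CPM of the 8 genes past the threshold in each library (numbers are replicates; black bars are mean ± SD, n = 3), with genes higher in 2KO in the upper row and lower in the lower row; each axis starts at 0. The groups do not overlap for any of the 8, and Fa2h is at 0 in all 2KO libraries.

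In ceramide synthesis, Fa2h was the only gene of the 39 with no count in any 2KO library. Fa2h (chromosome 8, 111345135 to 111393824, minus strand) encodes the hydroxylase that makes 2-hydroxylated fatty acids for ceramides of sebum, hair and myelin. It had 139, 232 and 176 counts in control (4.93, 7.49 and 5.75 CPM) and 0, 0 and 0 in 2KO, at least 163-fold lower against a floor of 3 counts over the 2KO group (0.0371 CPM). The call was kept in 13 of 13 alternatives, with an edgeR or DESeq2 adjusted p of at most 0.0244. Its level per length in control, 2.01 ± 0.435 CPM per kb (SD, n = 3), ranked it number 29 of the 39 genes.

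Of the enzymes that build ceramide and add glucose to it, Cers2 and Ugcg were higher in 2KO. Ugcg (chromosome 4, 59189257 to 59222833, plus strand), which attaches glucose to ceramide before it enters lamellar bodies, was at 59.1, 66.4 and 67.2 CPM in control and 139, 113 and 131 in 2KO. Each 2KO library was well above every control (log2 fold change 0.99 with SE 0.17, edgeR adjusted p = 0.00738), and the call was lost among 13 alternatives only without both replicate-3 libraries (0.0834). Cers2 (chromosome 3, 95314791 to 95323599, plus strand), a synthase of very long ceramides in many tissues, was at 37.0, 43.3 and 38.7 CPM in control and 90.9, 68.8 and 55.2 in 2KO, with a log2 fold change of 0.85 (SE 0.22, edgeR adjusted p = 0.0449). This call held in 4 of 13 alternatives. It was lost without control replicates 1, 2 or 3 (adjusted p = 0.115, 0.0895 and 0.141), without 2KO replicates 1 or 2 (0.101 and 0.0954), without both replicate-1 (0.175) or both replicate-3 libraries (0.113), with Xist as a covariate (0.125) and with the replicate number as a block (0.0528). Opposite-strand genes overlap 5.96% of its exonic bases.

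The other ceramide enzymes did not pass, although 3 of them lay above control without overlap. Degs1, the desaturase that finishes ceramide, had the highest level per length of all 39 genes in control (44.0 ± 6.64 CPM per kb) and was at 95.8, 130 and 116 CPM in control and 150, 193 and 189 in 2KO (log2 fold change 0.64, SE 0.18, edgeR adjusted p = 0.062). It passed as higher with DESeq2 (0.0362), with the replicate block (0.0379) and without 2KO replicate 1 (0.0415). Cers4, a synthase of hair follicles and sebaceous glands, was at 18.9, 19.0 and 14.6 CPM and at 27.1, 35.0 and 29.7 (log2 fold change 0.81 with SE 0.23, edgeR adjusted p = 0.0621), and passed with DESeq2 (0.0191). Sptlc2, a subunit of serine palmitoyltransferase, the first enzyme of the pathway, was at 81.1, 89.6 and 92.4 CPM and at 143, 103 and 106 (edgeR adjusted p = 0.223). Cers3, the synthase of the ultra-long ceramides of the barrier, was at 37.1, 46.7 and 41.9 CPM and at 42.1, 38.4 and 29.9 (edgeR adjusted p = 0.699). Degs2, which also hydroxylates ceramides, lay between 10.8 and 15.8 CPM and between 8.61 and 11.7, and Smpd1, the acid sphingomyelinase, between 12.5 and 22.5 and between 13.9 and 27.7, both with overlap.

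Among the ceramide synthases Cers1 to Cers6, the share of Cers2 in the summed level per length was 16.1% ± 1.98 in control and 25.9% ± 4.97 in 2KO, that of Cers3 19.3% ± 3.08 and 15.1% ± 2.15, and that of Cers6 29.9% ± 5.34 and 23.8% ± 1.28 (SD, n = 3). Cers5 held the largest mean share in control and in 2KO, 32.6% ± 3.41 and 31.8% ± 5.55. The exact permutation p was 0.1 for Cers2, Cers4 and Cers6 (the smallest possible, adjusted 0.171) and 0.3 for Cers3 (adjusted 0.45). The summed level of all 6 synthases ranged from 320 to 403 CPM in control and from 362 to 406 in 2KO.

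The 6 genes of acylceramide handling and the lipid envelope all had fold changes above 0 and none passed the threshold. Alox12b, a lipoxygenase that oxidises the linoleate of acylceramides, differed more between replicates than between groups, at 0.426, 7.43 and 11.3 CPM in control and 2.43, 47.1 and 16.4 in 2KO (log2 fold change 1.78, SE 1.06, edgeR adjusted p = 0.388). With the replicate number as a block it passed as higher (1.85, adjusted p = 0.0267), and without 2KO replicate 2 its log2 fold change was 0.58 (adjusted p = 0.851). Pnpla1, which transfers linoleate to make acylceramides, was at 2.87, 5.29 and 6.64 CPM and at 0.706, 8.58 and 13 (edgeR adjusted p = 0.747). Abca12, the transporter that loads lamellar bodies, was at 38.1, 85.2 and 62.8 CPM and at 43.0, 66.2 and 88.4 (edgeR adjusted p = 0.928). Aloxe3, the lipoxygenase that follows Alox12b, lay between 4.9 and 6.94 CPM in control and between 5.65 and 13.9 in 2KO. Nipal4, an ichthyosis gene for a membrane protein, lay between 12.8 and 32.5 and between 25.7 and 37.9, and Abhd5, a lipase coactivator that also acts with PNPLA1, between 60.6 and 93.6 and between 72.0 and 97.4.

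**Figure D4:**
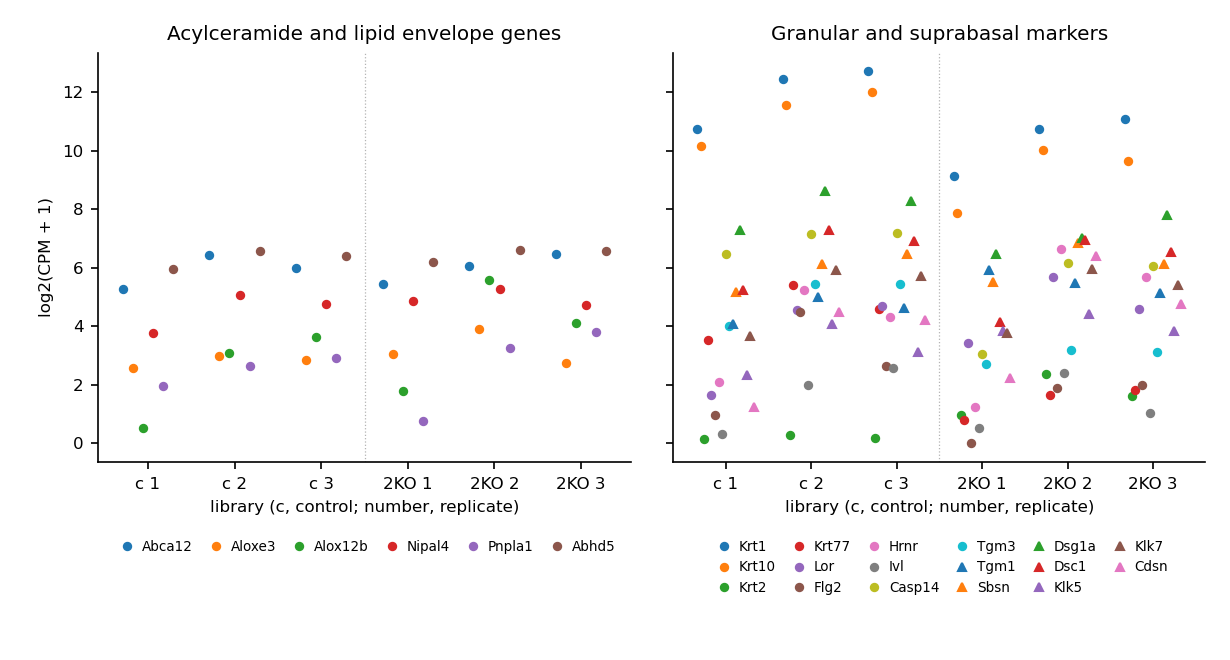
Log2(CPM + 1) of the 6 acylceramide and lipid envelope genes (left) and of 17 granular and suprabasal markers (right) in each library; each point is 1 gene and colours are explained under each panel. All 6 lipid genes were lowest in control replicate 1 within their group, as were all 17 markers, and 4 of 6 and 16 of 17 were also lowest in 2KO replicate 1.

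Replicate 1 was the lowest library of both groups for Abca12, Alox12b, Pnpla1 and Abhd5, and for 16 of 17 granular and suprabasal keratinocyte markers, against 15.9% of all tested genes. The summed level of those markers ranged from 3240 to 11600 CPM in control and from 1060 to 3620 in 2KO, with replicate 1 lowest in each group and none of the 17 at 0 in all libraries. Krt1 and Krt10 made up most of this sum, at means of 4670 and 2750 CPM in control and 1470 and 698 in 2KO. Neither passed the threshold (edgeR adjusted p = 0.101 and 0.0598). The fold change of 7 of the 17 markers lay above 0 and that of 10 below. Of the markers 1 was higher in 2KO (Krt2) and 2 were lower (Krt77 and Tgm3). The part of the marker level in the values of the lipid envelope genes was not tested. Of the called lipid genes, Scd2 was also lowest in replicate 1 of both groups, and without both replicate-1 libraries it still passed as higher.

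Most hair matrix and inner root sheath markers were also lower in 2KO. Of 16 such markers 11 were called lower and 0 higher, against 2.42% and 6.61% of all tested genes. The other 5 did not pass. Krt85 lay above control without overlap (log2 fold change 2.2), while Gata3 (0), Foxn1 (-0.2), Tchh (-0.77) and Lef1 (-0.52) lay at or below 0. The summed level of all 16 lay between 865 and 869 CPM in control and between 395 and 640 in 2KO. Lef1 and Gata3 were its largest parts in control, at means of 291 and 209 CPM. Krt25 was at 0 in all 2KO libraries. Prdm1, Fa2h and Elovl3 are known to be expressed in the hair follicle as well as in sebocytes, and the part of these markers in their values was not tested. Adipocyte markers, which share Pparg and several storage genes with sebocytes, were low in both groups: their 12 genes summed to 13.4 to 15.9 CPM in control and 7.3 to 18.6 in 2KO, Lep was at 0 in all 6 libraries, Adipoq was at most 0.674 CPM, and none of the 8 tested passed. Fibroblast markers summed to 415 to 778 CPM in control and 708 to 879 in 2KO, with Pdgfra and Fbn1 higher among 9 tested. Dcn made up most of this sum, at means of 382 CPM in control and 474 in 2KO, and did not pass (edgeR adjusted p = 0.469). The fold change of 6 of the tested fibroblast markers lay above 0 and that of 3 below.

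Other genes of these pathways gave 7 higher and 7 lower calls among 135 tested, with a median log2 fold change of -0.06. Over all 14972 tested genes 6.61% were called higher and 2.42% lower, and these shares also apply beside the counts of the single lists below. The lists were drawn up with earlier results of these data known, so the counts are a description. Of 16 tested regulators of lipid synthesis, Mlxipl and Ppard were higher and 0 lower. Mlxipl, which encodes ChREBP, a glucose-responsive activator of lipogenic genes, was at 2.27, 2.97 and 3.01 CPM in control and 15.4, 26.7 and 20.2 in 2KO. This gap was many times the spread within control (log2 fold change 2.92 with SE 0.33, edgeR adjusted p = 0.00113), and the call was kept in 13 of 13 alternatives. Ppard, the main PPAR receptor of keratinocytes, was at 36.4, 56.7 and 69.8 CPM in control and 96.4, 167 and 162 in 2KO (edgeR adjusted p = 0.0167; 0.0599 and 0.0586 without 2KO replicates 2 and 3, and 0.0921 without both replicate-3 libraries). The sterol-responsive activators Srebf1 (50 to 74.2 and 61.0 to 78.0 CPM) and Srebf2 (173 to 213 and 117 to 184) did not pass (edgeR adjusted p = 0.689 and 0.417), nor did Cebpa, a factor of sebocyte differentiation (43.7 to 59.2 and 22.4 to 38.3 CPM, adjusted p = 0.0921).

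Of 15 tested further sebaceous gland genes, 4 were lower and 1 was higher, against 2.42% and 6.61% of all tested genes. Acsbg1, an acyl-CoA synthetase, was at 38.8, 46.1 and 43.9 CPM in control and 4.94, 8.04 and 14.7 in 2KO, all 3 below every control (log2 fold change -2.22 with SE 0.37, edgeR adjusted p = 0.0064), and its call was kept in 13 of 13 alternatives. Lrig1, Hsd3b6 and Cyp2g1 were the other falls, with 1 count of Hsd3b6 and 0 of Cyp2g1 over the 2KO group. Mc5r, the melanocortin receptor of sebocytes, was at 1.35, 0.258 and 1.08 CPM and at 0.667, 0 and 0.0785 (edgeR adjusted p = 0.482), and Mogat2 had no count in any library.

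Among 34 other tested genes of fatty acid and triglyceride synthesis, Fads3 was higher and Me1, the malic enzyme that supplies NADPH, was lower. Fads3, a relative of Fads1, was at 0.887, 0.743 and 0.392 CPM in control and 6.71, 3.87 and 2.12 in 2KO (log2 fold change 2.64, SE 0.65, edgeR adjusted p = 0.0349). Its call was lost without control replicates 1, 2 or 3 (adjusted p = 0.064, 0.0847 and 0.116), without 2KO replicates 1 or 2 (0.123 and 0.0803), without both replicate-1 (0.148) or both replicate-3 libraries (0.105) and with Xist as a covariate (0.138). Me1 was at 34.3, 21.0 and 24.6 CPM and at 14.2, 6.41 and 10.6 (log2 fold change -1.36, SE 0.34, edgeR adjusted p = 0.0361). Its call was lost without control replicates 1 or 3 (adjusted p = 0.122 and 0.0781), without 2KO replicates 2 or 3 (0.103 and 0.0957), without both replicate-1 (0.0557) or both replicate-3 libraries (0.191) and with Xist as a covariate (0.0976).

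Of 32 other tested ceramide and glucosylceramide genes, 1 was higher and 0 lower: Ugt8a, which makes galactosylceramide in myelin, had 1 count over the control group and was at 2.43, 1.54 and 0.628 CPM in 2KO, a ratio of pooled counts of 137 (95% Clopper-Pearson interval 24.2 to 5470, counting error only; edgeR adjusted p = 0.0119). Its call was lost without control replicate 1 (adjusted p = 0.0501), without both replicate-1 (0.0817) and without both replicate-3 libraries (0.0627). Sptlc1, the partner of Sptlc2, lay between 33.2 and 55.0 CPM in control and between 36.4 and 49.8 in 2KO (edgeR adjusted p = 0.912). Asah1, the acid ceramidase, was at 54.4, 70.6 and 68.0 CPM and at 35.4, 38.1 and 47.9, without overlap but short of the threshold (edgeR adjusted p = 0.0836).

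Among 15 tested further barrier lipid genes, Abcg1, a sterol exporter, was higher and Alox12e and Them5 were lower. Abcg1 was at 2.7, 3.71 and 2.58 CPM in control and 6.08, 17.2 and 25.6 in 2KO (log2 fold change 2.44 with SE 0.50, edgeR adjusted p = 0.0158; 0.0522 and 0.0579 without control replicates 1 and 3, 0.0615 without 2KO replicate 3 and 0.181 without both replicate-3 libraries). Alox12e, an epidermal lipoxygenase, was at 16.5, 17.0 and 19.3 CPM and at 9.14, 4.81 and 6.63 (log2 fold change -1.36, SE 0.31, edgeR adjusted p = 0.0249). Without control replicates 1, 2 or 3 its adjusted p was 0.0565, 0.0597 and 0.091, without 2KO replicates 2 or 3 it was 0.087 and 0.0735, and without both replicate-3 libraries 0.195. Them5, an acyl-CoA thioesterase, was at 18.7, 29.0 and 44.0 CPM and at 2.78, 9.81 and 9.3 (log2 fold change -2.06, SE 0.49, edgeR adjusted p = 0.0285). Without control replicates 2 or 3 its adjusted p was 0.0537 and 0.0983, without 2KO replicates 2 or 3 it was 0.0541 and 0.0704, without both replicate-3 libraries 0.177 and with Xist as a covariate 0.0586. Replicate 1 was the lowest library of each group for Them5, as for the granular markers.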

How the data were processed

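Bulk RNA sequencing of 6 libraries (3 control, 3 Ring1a/b 2KO by their labels) gave 1 file of counts each. The authors deposited whole-number counts per gene symbol, not normalized. The submitters' processing notes list build mm10 and the tools HTSeq 0.6.1, TopHat2 2.0.13, DESeq2 1.6.3 and Cufflinks 2.2.1, without their roles. The annotation and strand setting were not stated there. The RNA, per the labels' protocols, was amplified before library construction, and the text describes a gate for interfollicular epidermis (EpCAM and Sca1 positive) although the samples are labelled hair follicle. The reads carry no stated molecular identifiers, so intervals and floors cover counting error only.

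The low-count filter was filterByExpr (edgeR 4.0.16 in R 4.3.3). Counts were scaled by TMM and compared by the quasi-likelihood test with no covariate, adjusted over 14972 genes; the code was tested on simulated data. Means are given with SD, fold changes with SE (absolute log2 value over the root of F). Levels per length use exon lengths of GENCODE vM21 (GRCm38), in which 97.1% of rows matched 1 gene. Coordinates are 1-based.

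The genes described, the lists and the alternatives were chosen with earlier results of these data known. All genes of the list are named. Some genes of the other lists are counted but not reported here. Of the rest, most genes past the threshold are given values, up to 6 per list. Lrig1, Hsd3b6, Cyp2g1 and several called markers are named without full values. Further genes, markers and paralogs were chosen after their values were seen. Families, promoter windows and motifs were also chosen then. Alternatives were DESeq2 1.42.0, RLE size factors, no low-count filter (at least 1 count in all), a replicate block, Xist as a covariate, each library left out, and both replicate-1 or both replicate-3 libraries left out.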

Additional observations from a re-analysis of the deposited data

How the results depend on the processing

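The number of lipid genes called higher ranged from 0 to 4 and the number called lower from 2 to 4 when libraries were left out, singly or both of a replicate number. Over all tested genes these ranges were 309 to 854 higher and 72 to 347 lower, and for the other genes of the pathways 1 to 7 and 4 to 8. With DESeq2 1486 genes were higher and 753 lower, and 11 and 14 of the other pathway genes. With Xist as a covariate 237 genes were lower. The replicate block gave 5 higher and 4 lower lipid genes and 11 higher and 11 lower other pathway genes. The numbers were not used as pairs, since deviations from the group means correlated at 0.33, 0.1 and -0.16 for numbers 1, 2 and 3, and control replicates 2 and 3 correlated best with another number.

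Among the lipid genes, signs turned only for genes short of the threshold. With single libraries or both of a number left out, the log2 fold change ranged from -0.98 to 0.35 for Pparg, -0.41 to 0.19 for Elovl4, -0.06 to 0.38 for Elovl5, -0.18 to 0.18 for Elovl7, 0.00 to 0.70 for Awat2, -0.42 to 0.05 for Soat1, -0.03 to 0.60 for Dgat2, -0.10 to 0.71 for Smpd1, -0.18 to 0.38 for Abca12 and -0.05 to 1.14 for Pnpla1. Elovl4 was at 0.05 with the replicate block and Elovl7 at -0.08 with the Xist covariate. The cause of these changes was not tested, beyond the smaller number of libraries. No scaling moved the median of all genes by over 0.1. These scalings all take most genes to be unchanged, so the medians cannot show a shift shared by most genes. Counts of 0 to 9 per library (Awat1, and Elovl3 and Fa2h in 2KO) limit any finer statement on those genes.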
